A study of Drosophila melanogaster with 5 samples.

Results

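The genes described here encode the machinery that licenses replication origins and copies DNA. They are 32 of the 14094 genes in the table: 17 chosen by name, and 15 more whose symbols begin like those of the origin recognition complex, the Mcm helicase, GINS, the clamp loader, replication protein A (RPA), chromatin assembly factor 1 (CAF-1) or the flap endonuclease Fen1. All 32 had enough counts to be tested. Whole ovaries of young adult fruit flies (Drosophila melanogaster), taken 1 to 3 days post-eclosion, were compared. The knockout group (2 libraries) is labelled BEAF 32-AB KO, a line altered in the insulator protein BEAF-32, and the labels do not say what the alteration removes. The control group (3 libraries) is labelled as wild type with the genotype nosGAL4;MKRS/TM6. It carries a GAL4 driver active in the germline and chromosome 3 balancers, neither of which the knockout label names, so these differences between the stocks cannot be told apart from that of BEAF-32.

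Before S phase, the origin recognition complex (ORC) binds DNA, and Cdc6 and Cdt1 (dup in the fly) then load the ring of Mcm2 to Mcm7 onto it. Geminin binds Cdt1 and blocks further loading until the next cycle. When an origin fires, Cdc45 and GINS join the ring to form the moving helicase, polymerases extend the strands on the sliding clamp PCNA, and CAF-1 places histones on the new DNA. In the fly ovary these proteins serve the mitotic divisions of germline and follicle cells, the endocycles of nurse and follicle cells, and the amplification of chorion genes in late follicle cells. Their mRNAs and proteins are also loaded into the egg for the rapid cycles of the embryo.

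Depth was 38820176 and 47805964 estimated counts for the knockout libraries (also called mutant below), 41105107 for control 1, and only 8448850 and 10388643 for controls 2 and 3. Levels are CPM, counts scaled by a library's total. Means carry ± SD (mutant n = 2, control n = 3). Each fold change is the log2 difference of knockout from control with its standard error (SE), and adjusted p-values are from edgeR's quasi-likelihood test over all 9241 tested genes. Nothing in the labels tells whether replicate libraries came from separate flies, and the p-values therefore describe only the spread between these libraries, which may be technical. BEAF-32 mRNA itself stood at 50.2 and 52.8 CPM in mutant ovaries against 84.9, 136 and 144 CPM in control ovaries (-1.19, SE 0.26, adjusted p = 0.0157). It was not called in the fit lacking knockout 1 (-1.26) or in that lacking knockout 2 (-1.17). A depth covariate, which sets the deep control 1 and knockouts apart from the shallower controls 2 and 3, gave -0.70. In that fit control 1 is the only deep control, so the fold change compares the knockouts with control 1 alone. The same holds wherever this covariate is named below.

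Replication genes were lower in the knockout or were not called: 17 of 32 fell and 0 rose. Over all tested genes 41.5% were called, 18.7% lower and 22.7% higher. None of the 32 was higher with an unadjusted p under 0.05, and DESeq2 and limma-voom called 0 higher. The median log2 fold change was -0.87 for the 32 genes and 0.11 for all tested genes. Knockout libraries lay below all control libraries for 22 of the 32 genes and above them for 0. Over all tested genes the knockout lay below for 30.5% and above for 37.6%. The sum over the 32 genes was 2231 and 2507 CPM in the knockout, against 3828 to 3877 CPM in controls. Counts of called genes varied with role. All 6 ORC genes fell, as did dup and geminin, the 2 members that act at the loading step. The 2 CAF-1 genes among the members (Caf1-105 and Caf1-180) and both subunits of ribonucleotide reductase also fell. Of the Mcm ring genes 1 of 6 fell, with 2 of 5 clamp and clamp loader genes, 1 of 4 GINS genes and 0 of 3 RPA genes. For RPA, 1 gene (RpA-70) had an unadjusted p under 0.05, DESeq2 called 1 and limma-voom 0.

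**Figure D1:**
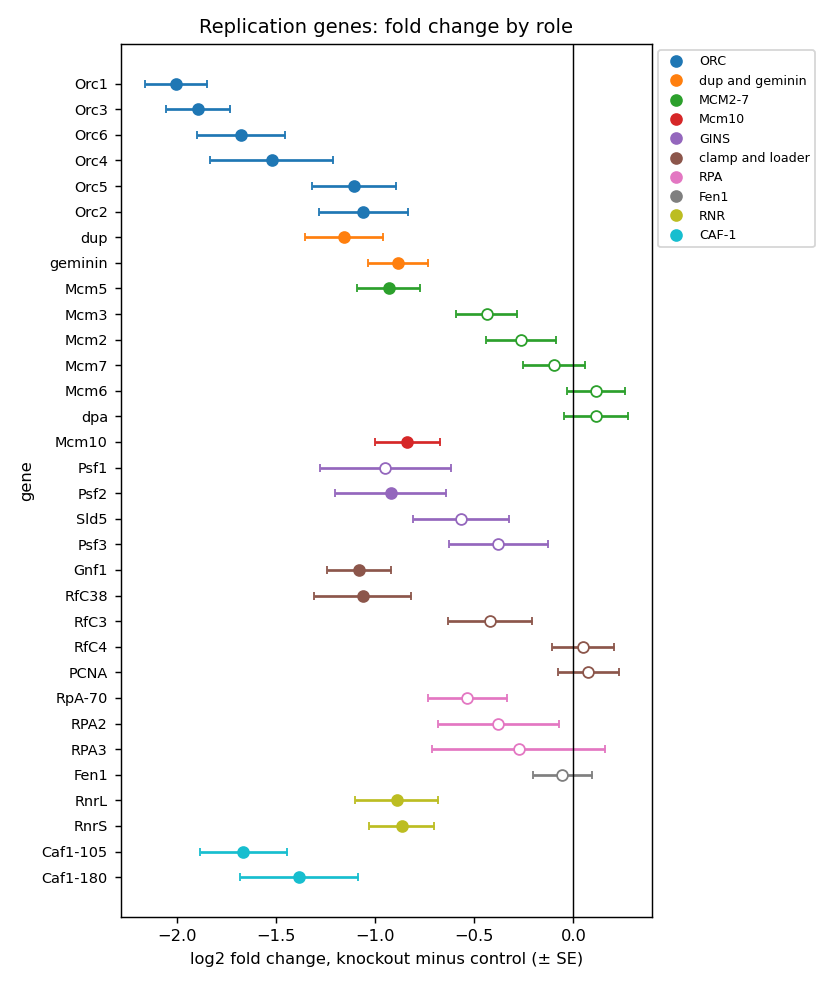
Log2 fold change (knockout minus control, x axis) of the 32 replication genes (y axis), coloured by role, with bars of 1 SE; filled points passed an adjusted p under 0.05. All 6 ORC genes lie at or below -1.06, while dpa, Mcm6, PCNA and RfC4 lie at 0.05 to 0.11.

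Markers of several cell types differed between the groups. A list of 20 late eggshell genes summed to 280 and 319 CPM in the knockout against 22106 to 31112 CPM in the control, and all 20 were called lower. Germline markers (24 genes, 7 lower and 5 higher, median 0.02) summed to 4315 and 4793 CPM against 7013 to 7847 CPM, and follicle cell markers (12 of 17 tested higher, 2 lower) to 2063 and 2162 CPM against 837 to 1155 CPM. Muscle markers (12 of 15 higher, 0 lower) summed to 5987 and 6063 CPM against 1043 to 1379 CPM, and hemocyte and fat body markers (5 of 9 tested higher, 0 lower) to 5241 and 6589 CPM against 525 to 710 CPM. Of all these markers, 1 follicle cell gene was at 0 in the control. In whole ovaries, fewer cells of a type and less RNA per cell cannot be told apart, and the part of cell content in the fold changes was not tested.

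Control 1 differed from controls 2 and 3 in a way that followed transcript length. Over 8026 tested genes with counts in every control, the log2 ratio of control 1 to the mean of controls 2 and 3 had a Pearson correlation of 0.52 with log2 length, against 0.51 over the 32 replication genes. These are descriptions across genes of the same 3 libraries. The median log2 ratio was -0.57 for transcripts of up to 1000 bases and 0.57 for a class of longer transcripts with a median length of 5169 bases. Among the replication genes it ran from -1.43 for RPA3 (longest transcript 673 bases) to 0.67 for Caf1-180 (4043 bases).

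**Figure D2:**
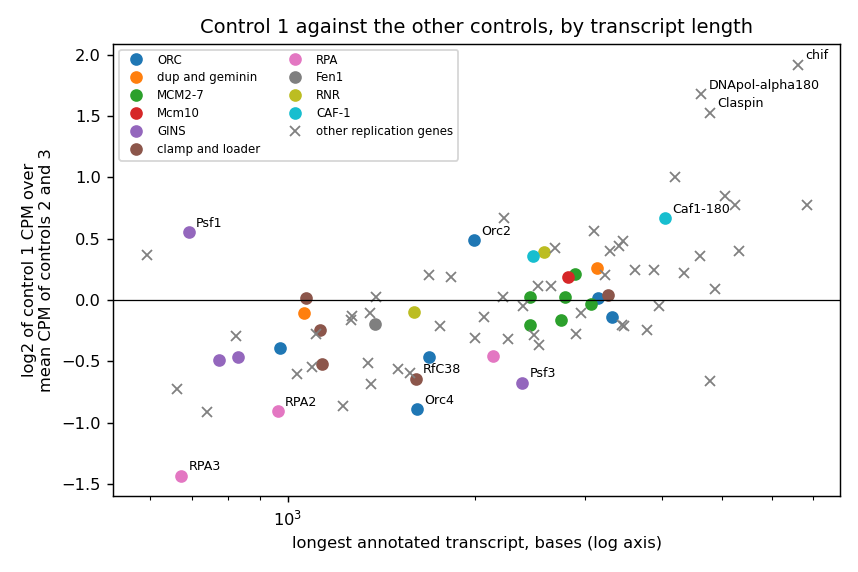
Log2 ratio of CPM in control 1 to the mean CPM of controls 2 and 3 (y axis) against the longest annotated transcript in bases (x axis, log scale), for the 32 replication genes coloured by role and for the other replication genes (crosses). RPA3 lies lowest, and the long genes chif, DNApol-alpha180 and Claspin lie highest.

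The origin recognition complex fell as a whole, with log2 fold changes from -2.0 to -1.06 and no overlap between groups for any subunit. Orc1, whose ATPase activity helps to load the helicase, was at 35.3 and 36.3 CPM in mutant ovaries against 149, 145 and 150 CPM in the control. This amounts to 35.8 ± 0.69 against 148 ± 2.73 CPM, a fold change of -2.0 (SE 0.16, adjusted p = 0.00075). The 2 knockout libraries and the 3 controls each lay close together. The gene (FBgn0286788) lies on the minus strand of chromosome 2R at 7522437 to 7525716 in dm6, and its longest transcript has 3 exons.

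Orc3, which in the fly is also known as latheo, was at 19.2 and 23.4 CPM against 76.0, 85.0 and 82.6 CPM (-1.89, SE 0.16, adjusted p = 0.00090). Its exons (chromosome 2R, 13202728 to 13206547, minus strand) are wholly shared on the same strand with the annotated gene CG34315. The deposited counts hold no entry under that symbol, so the level of Orc3 may include reads of both. Orc6, which is needed for ORC to bind DNA in the fly, was at 6.98 and 8.24 CPM against 20.8, 26.7 and 27.7 CPM (-1.68, SE 0.22, adjusted p = 0.00326). For all of these the lowest control was more than 2 times the highest knockout library.

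The remaining subunits fell by less or with a wider spread of controls. Orc4 (chromosome 2R, 24795740 to 24797414, minus strand) was at 15.4 and 18.9 CPM against 32.4, 64.0 and 55.9 CPM (-1.52, SE 0.31, adjusted p = 0.0129). Control 1 was the lowest of the 3 controls, and the depth covariate made the fold change -0.91 (adjusted p = 0.00173). Orc5, on 2L, was at 15.6 and 19.0 CPM against 30.6, 45.3 and 39.2 CPM (-1.11, SE 0.21, adjusted p = 0.0103). Control 1 was again the lowest control, and the fold change was -0.81 under the depth covariate and -1.24 without control 1.

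Orc2, on 3R, was at 19.6 and 19.9 CPM against 52.1, 37.6 and 36.7 CPM (-1.06, SE 0.23, adjusted p = 0.0150). Here control 1 was the highest control, and the groups were still apart. Without control 1 the fold change of Orc2 was -0.86, and under the depth covariate it was -1.38. Orc1, Orc3 and Orc6 were also called without knockout 1 (adjusted p = 0.0235, 0.0243 and 0.0481) and without knockout 2 (adjusted p = 0.0196, 0.0189 and 0.0449). Orc2, Orc4 and Orc5 were not called in the fit lacking knockout 1 (adjusted p = 0.116, 0.100 and 0.0906) or in that lacking knockout 2 (adjusted p = 0.128, 0.0916 and 0.0821).

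**Figure D3:**
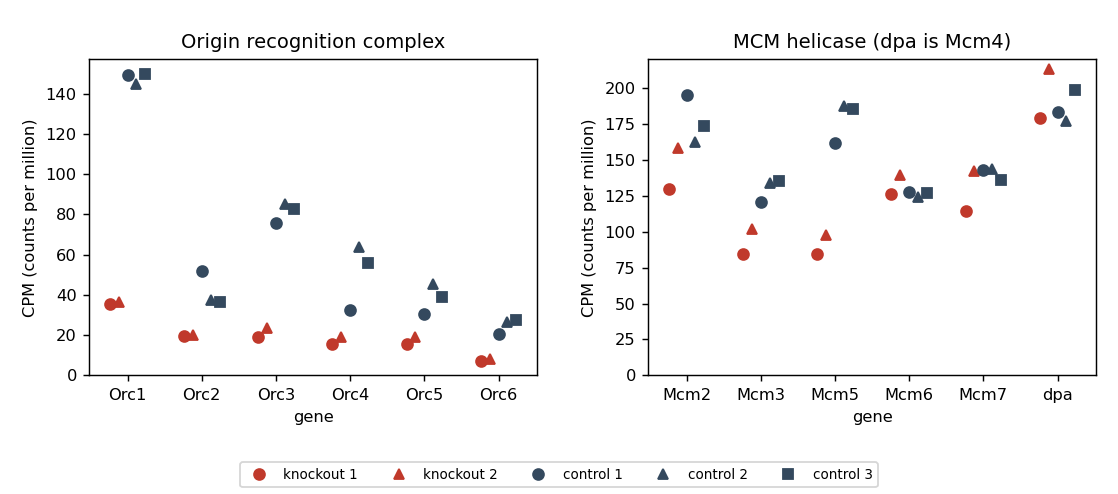
CPM (y axis, from 0) of each ORC gene (left) and each Mcm2 to Mcm7 gene (right) in every library, red for the 2 knockout and dark for the 3 control libraries. Knockout points lie below all controls for the 6 ORC genes, and on the right they overlap the controls for dpa, Mcm6 and Mcm7.

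Scaled by the length of the longest transcript, so that genes can be compared, control levels of the ORC genes ran from 21.1 CPM per kb for Orc2 to 47.0 CPM per kb for Orc1, which stood above the others. The next subunits were Orc4 at 31.4, Orc6 at 25.8, Orc3 at 24.5 and Orc5 at 22.8 CPM per kb. Below Orc1 this order differed between controls: Orc4 was second in controls 2 and 3 (39.6 and 34.6 CPM per kb) but at 20.1 in control 1, where Orc2 was second (26.1) after being lowest in the others (18.9 and 18.4). In the knockout they ran from 6.42 CPM per kb for Orc3 to 11.4 CPM per kb for Orc1, with Orc4 at 10.6, Orc5 at 10.3, Orc2 at 9.89 and Orc6 at 7.83 CPM per kb. The highest ORC subunit was 2.22 times the lowest in the control and 1.77 times in the knockout. Within each library, the log2 ratio of Orc1 to the mean of the other 5 subunits was 0.46 and 0.27 in the knockout and 1.13, 0.77 and 0.91 in the control. Orc1 was thus less far above the mean of its partners in the knockout, and in knockout 2 Orc4 (11.7 CPM per kb) was slightly above Orc1 (11.5).

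Both members that govern loading of the helicase, dup and geminin, fell. The product of dup is the loader Cdt1, and dup was at 92.8 and 84.5 CPM in mutant ovaries against 229, 203 and 180 CPM in control ovaries (-1.16, SE 0.20, adjusted p = 0.00729). It lies on 2R at 15376619 to 15380988, 606150 bases from the start of BEAF-32, the closest of the 11 replication genes on that arm. Its inhibitor geminin was at 58.7 and 59.9 CPM against 107, 123 and 108 CPM (-0.88, SE 0.15, adjusted p = 0.00739). The groups did not overlap for either gene. The log2 ratio of dup to geminin per kb was -0.91 and -1.07 in the knockout and -0.47, -0.84 and -0.83 in the control. Neither gene was called in the fit lacking knockout 1 (adjusted p = 0.0670 for dup and 0.0821 for geminin) or in that lacking knockout 2 (adjusted p = 0.0928 and 0.103).

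The helicase ring that ORC loads had 1 of its 6 genes lower and a median fold change of -0.18. Mcm5 (3R, 10788524 to 10791150, plus strand) fell. It was at 84.2 and 97.4 CPM in mutant ovaries against 162, 187 and 185 CPM in control ovaries (-0.93, SE 0.16, adjusted p = 0.00741), and was not called in the fit lacking knockout 1 (adjusted p = 0.0949) or in that lacking knockout 2 (adjusted p = 0.0838).

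The other ring genes did not pass the test. Mcm3 was at 84.7 and 102 CPM against 120, 134 and 135 CPM (-0.44, SE 0.15, adjusted p = 0.0662). Its groups did not overlap, and it was called lower without control 1 (-0.48, adjusted p = 0.00398), by DESeq2 (-0.44, adjusted p = 0.00435), by limma-voom (-0.44, adjusted p = 0.0470), and under the depth covariate (-0.35, adjusted p = 0.0497). Mcm2 was at 130 and 158 CPM against 195, 163 and 173 CPM (-0.26, SE 0.18, adjusted p = 0.273), and was called lower under the depth covariate (-0.43, adjusted p = 0.0301).

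For the last 3 ring genes the groups overlapped. The fly Mcm4 gene dpa was at 179 and 213 CPM in mutant ovaries against 183, 177 and 198 CPM in control ovaries (0.11, SE 0.16, adjusted p = 0.598), with a 95% interval from -0.28 to 0.51. Mcm6 was at 126 and 139 CPM against 128, 124 and 127 CPM (0.11, SE 0.15, adjusted p = 0.559), with an interval from -0.24 to 0.47. Mcm7 was at 114 and 142 CPM against 143, 143 and 136 CPM (-0.10, SE 0.16, adjusted p = 0.636), with an interval from -0.48 to 0.28. These intervals leave room for modest shifts in either direction but not for a change of the size seen in Orc1. Of the exon bases of Mcm7, 81.7% are covered on the opposite strand by the antisense RNA asRNA:CR45871. The deposited counts hold no entry under that symbol and no strand setting is given, so the level of Mcm7 is less certain.

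By their means over the controls, the 6 ring genes lay within 45.3 CPM per kb (Mcm6) and 72.7 CPM per kb (Mcm5), the highest 1.61 times the lowest. In the knockout they ran from 34.0 CPM per kb (Mcm3) to 63.8 CPM per kb (dpa), 1.88 times. In controls 2 and 3 Mcm5 was the highest ring gene and Mcm6 the lowest, while in control 1 Mcm2 (67.3 CPM per kb) was just above Mcm5 (65.9) and Mcm3 (43.8) was lowest. In the knockout Mcm5 stood at 37.0 CPM per kb, where all but Mcm3 were above it. The log2 ratio of Mcm5 to the mean of the other 5 ring genes was -0.36 and -0.41 in the knockout libraries and 0.28, 0.53 and 0.47 in the controls.

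Ratios taken within a library do not depend on how libraries are scaled. A shift that follows transcript length, as in control 1, does not cancel in them where the genes differ in length. The mean log2 level of the ORC genes relative to that of the ring genes, per kb, was -2.30 and -2.36 in the knockout and -1.19, -0.93 and -1.03 in the control. ORC transcripts were thus lower relative to ring transcripts by 1.28 on the log2 scale (knockout mean -2.33, control mean -1.05), and the groups did not overlap. No test was made of this ratio. Summed over subunits, ORC stood at 112 and 126 CPM against 361 to 404 CPM, and the ring at 718 and 852 CPM against 928 to 955 CPM.

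**Figure D4:**
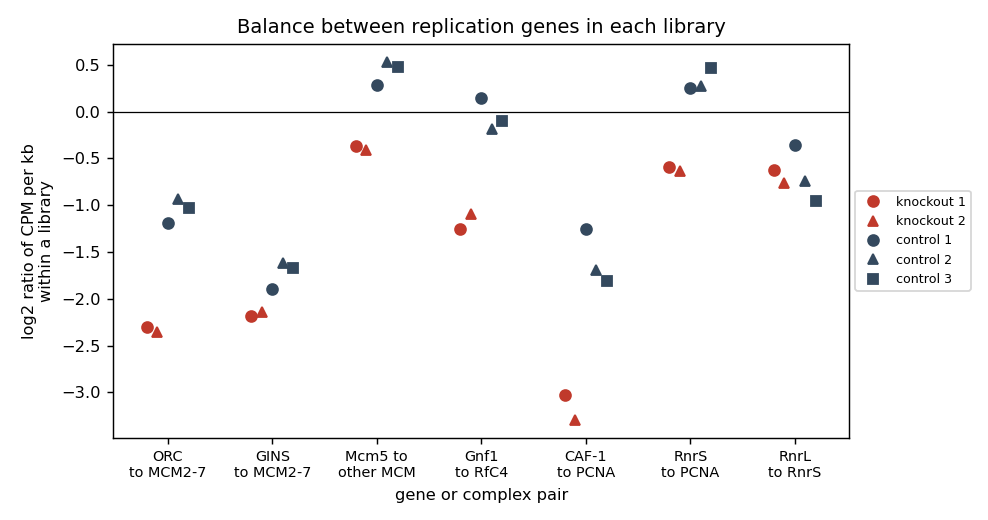
Log2 ratio of CPM per kb (y axis) between gene pairs or complexes (x axis) within each library, red for knockout and dark for control; complexes are means of log2 levels over their genes. The ORC ratio to the Mcm ring lies near -2.3 in both knockout libraries and between -1.19 and -0.93 in the controls, while RnrL to RnrS overlaps between groups.

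Among helicase activation genes, Mcm10 and 1 GINS gene fell. Mcm10, which acts as origins fire and is not part of the ring, was at 51.9 and 53.2 CPM in mutant ovaries against 105, 96.7 and 87.8 CPM in control ovaries (-0.84, SE 0.16, adjusted p = 0.0115). It was not called in the fit lacking knockout 1 (adjusted p = 0.109) or in that lacking knockout 2 (adjusted p = 0.125). The GINS genes had fold changes from -0.95 to -0.38. Psf2 fell, from 10.1, 14.9 and 13.0 CPM in the control to 6.11 and 6.84 CPM (-0.92, SE 0.28, adjusted p = 0.0429). It was the least secure call, lost without any one of knockout 1 (adjusted p = 0.208), knockout 2 (0.211), control 2 (0.0720) and control 3 (0.0653), with scaling over germline genes (0.0528), with the replicate block (0.128) and under the depth covariate (0.101).

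Psf1 was at 5.28 and 6.92 CPM against 15.2, 9.50 and 11.2 CPM, short of a call (-0.95, SE 0.33, adjusted p = 0.0633). Lower calls came from DESeq2 (adjusted p = 0.0143), limma-voom (0.0224), scaling over germline genes (0.0435), the depth covariate (0.00705) and the fit without control 2 (adjusted p just under the threshold). Sld5 was at 10.3 and 11.8 CPM against 13.4, 19.5 and 17.9 CPM (-0.57, SE 0.24, adjusted p = 0.108), and Psf3 at 24.1 and 31.7 CPM against 26.7, 42.5 and 42.8 CPM (-0.38, SE 0.25, adjusted p = 0.266). Of the exon bases of Psf3, 34.9% overlap CG17841 on the opposite strand. Without control 1, both Sld5 (-0.71, adjusted p = 0.0102) and Psf3 (-0.57, adjusted p = 0.00734) were called lower. The mean log2 ratio of GINS to ring genes was -2.19 and -2.14 in the knockout and -1.89, -1.62 and -1.67 in the control.

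The sliding clamp and the loader that closes it around DNA were split. PCNA, the clamp itself (2R, 20261754 to 20262883, minus strand), was at 149 and 181 CPM in mutant ovaries against 162, 165 and 156 CPM in the control. It was not called (0.08, SE 0.15, adjusted p = 0.713), and its 95% interval ran from -0.30 to 0.45. The 3 controls lay between the 2 knockout libraries.

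Gnf1, the large subunit of the clamp loader, fell from 229, 215 and 230 CPM to 97.5 and 109 CPM (-1.08, SE 0.16, adjusted p = 0.00476). RfC38, a small subunit, fell from 49.1, 74.9 and 78.2 CPM to 27.7 and 35.0 CPM (-1.06, SE 0.24, adjusted p = 0.0188), and was at -0.64 under the depth covariate (adjusted p = 0.00834). Of its exon bases 25.2% overlap Nup160 on the opposite strand. Neither gene was called in the fit lacking knockout 1 (adjusted p = 0.0762 for Gnf1 and 0.135 for RfC38) or in that lacking knockout 2 (adjusted p = 0.0667 and 0.108).

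The other 2 loader genes among the members did not pass the test. RfC3 was at 24.4 and 29.7 CPM against 28.9, 43.9 and 39.3 CPM (-0.42, SE 0.21, adjusted p = 0.159), and was called lower without control 1 (-0.57, adjusted p = 0.00576). RfC4 was at 80.2 and 80.3 CPM against 71.5, 84.2 and 85.1 CPM (0.05, SE 0.16, adjusted p = 0.829). CG8142, a clamp loader gene by its RefSeq synonym RFC2 and not a member, was at 21.3 and 27.3 CPM against 28.6, 49.6 and 54.3 CPM (-0.82, SE 0.30, adjusted p = 0.0728). It was called lower without control 1 (-1.05, adjusted p = 0.000196) and by DESeq2 (-0.82, adjusted p = 0.0409). Within libraries, Gnf1 was lower relative to RfC4 in both knockouts: the log2 ratio of Gnf1 to RfC4 per kb was -1.26 and -1.09 in the knockout and 0.14, -0.19 and -0.10 in the control.

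RPA coats single-stranded DNA at the fork, and none of its 3 genes was called. The large subunit RpA-70 was at 219 and 241 CPM in mutant ovaries against 275, 371 and 383 CPM in control ovaries (-0.53, SE 0.20, adjusted p = 0.0773). RPA2 was at 59.5 and 70.7 CPM against 55.1, 96.1 and 111 CPM (-0.38, SE 0.30, adjusted p = 0.352), and RPA3 at 26.8 and 28.2 CPM against 16.3, 39.4 and 48.2 CPM (-0.28, SE 0.44, adjusted p = 0.634). For all of these control 1 was the lowest control, and for RPA2 and RPA3 it lay below both knockout libraries. Without control 1 the 3 genes were called lower, at -0.67 (adjusted p = 0.000752), -0.62 (adjusted p = 0.00189) and -0.63 (adjusted p = 0.00523). Under the depth covariate RPA3 was instead called higher (0.78, adjusted p = 0.00834). Its sign also turned, without a call, with limma-voom (0.07), with the replicate block (0.17) and without control 3 (0.02), so no direction can be given for RPA3. DESeq2 called RpA-70 lower (-0.54, adjusted p = 0.0243). Fen1, which trims the flaps of Okazaki fragments, was at 35.0 and 38.2 CPM against 35.8, 42.3 and 39.7 CPM (-0.06, SE 0.15, adjusted p = 0.784), with a 95% interval from -0.42 to 0.31.

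Ribonucleotide reductase makes the deoxyribonucleotides used for DNA synthesis. Both of its genes fell, by like amounts when all libraries were fitted with no covariate. The large subunit RnrL was at 156 and 166 CPM in mutant ovaries against 364, 287 and 266 CPM in control ovaries (-0.89, SE 0.21, adjusted p = 0.0203). The small subunit RnrS was at 148 and 174 CPM against 288, 296 and 319 CPM (-0.87, SE 0.16, adjusted p = 0.0102). Neither group pair overlapped. Control 1 was the highest control for RnrL and the lowest for RnrS. Without control 1 the fold changes were -0.74 for RnrL and -0.89 for RnrS, and under the depth covariate -1.16 and -0.83. RnrL was not called in the fit lacking knockout 1 (adjusted p = 0.146) or in that lacking knockout 2 (adjusted p = 0.150), nor was RnrS (adjusted p = 0.11 and 0.0930). The groups overlapped in the log2 ratio of RnrL to RnrS per kb, which was -0.62 and -0.76 in the knockout and -0.36, -0.74 and -0.96 in the control. By contrast, the ratio of RnrS to PCNA was -0.59 and -0.63 in the knockout and 0.25, 0.27 and 0.46 in the control.

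CAF-1 deposits histones behind the fork, and 2 of its 3 subunit genes fell. Caf1-105 (2R, 10466001 to 10468540, minus strand) was at 29.0 and 35.2 CPM in mutant ovaries against 122, 107 and 83.8 CPM in control ovaries (-1.66, SE 0.22, adjusted p = 0.00325). Caf1-180, the large subunit, on X, was at 101 and 85.5 CPM against 332, 214 and 205 CPM (-1.38, SE 0.30, adjusted p = 0.0154). Control 1 was the highest control for both, and the groups did not overlap. Without control 1 the fold changes were -1.52 for Caf1-105 and -1.11 for Caf1-180, and under the depth covariate -1.91 and -1.81. Caf1-105 was not called without knockout 1 (adjusted p = 0.0577) but was without knockout 2 (adjusted p = 0.0418), and Caf1-180 was not called without either of them (adjusted p = 0.0927 and 0.133). Caf1-55, a histone-binding subunit that CAF-1 shares with other complexes and that is not a member, was at 121 and 137 CPM against 172, 154 and 147 CPM and was called lower only under the depth covariate (edgeR -0.25, SE 0.16, adjusted p = 0.259; with the covariate -0.40, adjusted p = 0.0255). The mean log2 ratio of Caf1-105 and Caf1-180 to PCNA was -3.03 and -3.29 in the knockout and -1.25, -1.69 and -1.81 in the control.

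**Figure D5:**
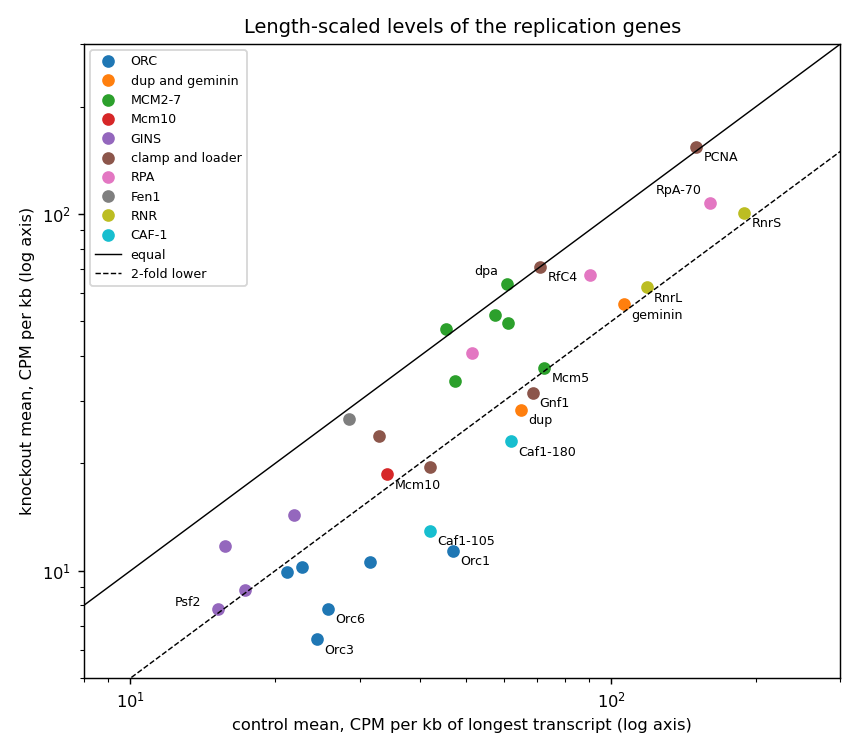
Mean knockout level against mean control level of the 32 replication genes, in CPM per kb of the longest transcript, both axes on log scales, with a solid line of equality and a dashed line at 2-fold lower. ORC and CAF-1 genes lie below the dashed line, while PCNA, RfC4, Mcm6 and dpa lie near equality.

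Among 52 other replication-pathway genes in the table, 51 were tested, of which 22 fell and 2 rose (median -0.61), against the same background of 18.7% lower and 22.7% higher. The smallest p belonged to humpty dumpty, hd, a gene needed for cell proliferation and chorion gene amplification, which went from 44.6 ± 6.04 to 11.1 ± 1.46 CPM (-1.96, SE 0.19, adjusted p = 0.00121). Cdc6, the partner of dup in helicase loading, fell from 78.1 ± 9.08 to 23.6 ± 1.60 CPM (-1.69, SE 0.17, adjusted p = 0.00150). It was at 22.4 and 24.7 CPM in mutant ovaries against 68.1, 80.4 and 85.9 CPM in the control, a pattern close in size to that of the ORC genes. Cyclin E, CycE, which drives entry into S phase, fell from 293 ± 6.02 to 93.6 ± 9.08 CPM (-1.60, SE 0.16, adjusted p = 0.00141). The gene l(2)dtl, whose product targets Cdt1 for destruction in S phase, fell (-1.48, SE 0.16, adjusted p = 0.00179).

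Of 10 origin licensing, firing and fork genes, 6 fell: hd, the loading factor Cdc6, Cdc45, mus101, Ctf4 and timeout. Among 8 regulators of S phase entry, 4 fell: CycE, E2f1, E2f2 and Rbf2. The 5 genes grouped here as polymerase, primase and ligase genes all fell, with a median of -0.82. They included the catalytic subunit DNApol-delta (-1.31, SE 0.15, adjusted p = 0.00230) and the primase subunit DNApol-alpha60 (-1.03, SE 0.16, adjusted p = 0.00546). The others were DNApol-alpha50, Pol31 and DNAlig1. This group leaves out Mes4 and Chrac-14, which are also in the list, and Chrac-14 was not called (-0.38, SE 0.23, adjusted p = 0.227). It also leaves out 4 polymerase subunits from outside the list, given below, of which 1 fell and 3 were not called. The deoxyribonucleoside kinase gene dnk fell (-1.37, SE 0.18, adjusted p = 0.00292), as did Mes4 (-2.17, SE 0.33, adjusted p = 0.00513). Of the 6 genes of the Myb-MuvB complex, which binds chorion amplification origins, edgeR called 0 (2 at an unadjusted p under 0.05), DESeq2 called 1 (lin-52) and limma-voom 0. The 22 calls became 6 without knockout 1 and 5 without knockout 2, with hd, CycE, Cdc6, l(2)dtl and DNApol-delta among them in both. The groupings within the list were made with its values known.

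The 2 genes of the list that rose were the adenylate kinase gene Adk1 (1.13, SE 0.20, adjusted p = 0.00777) and pic (0.60, SE 0.17, adjusted p = 0.0378), whose product DDB1 is the adaptor of the ubiquitin ligase that uses the l(2)dtl product. Neither was called without knockout 1 or knockout 2. The pic call was also lost without control 2 (adjusted p = 0.194) or control 3 (adjusted p = 0.175). It was lost too with library totals only (adjusted p = 0.0511), scaling over germline genes (0.0911), no filter (0.0904) and the replicate block (0.166). Among the uncalled genes with the highest CPM, topoisomerase gene Top2 had a fold change of -0.21 (SE 0.31, adjusted p = 0.609), the E2F partner Dp of 0.11 (SE 0.16, adjusted p = 0.609), chif, the activator of the Cdc7 kinase, of 0.17 (SE 0.66, adjusted p = 0.854) and the E2F inhibitor Rbf of -0.52 (SE 0.18, adjusted p = 0.0643). Top2 was called lower under the depth covariate (-0.70, adjusted p = 0.00640). Without control 1, Rbf was called lower (-0.42, adjusted p = 0.00950), as it was by DESeq2 (-0.52, adjusted p = 0.0138). Lower calls for Rbf also came from limma-voom (adjusted p = 0.0440), library totals only (0.0470), scaling over germline genes (0.0473) and the depth covariate (-0.70).

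The value of chif, a long transcript, turned on control 1: at 206 and 205 CPM in mutant ovaries against 366, 119 and 74.4 CPM, it was called higher once control 1 was dropped (1.14, adjusted p = 0.00169) and lower under the depth covariate (-0.82, adjusted p = 0.0197). Another 4 polymerase subunits whose symbols the pattern missed were added after the data were seen. DNApol-alpha73 fell (-0.84, SE 0.16, adjusted p = 0.00970), while DNApol-epsilon255 (-0.09, SE 0.30, adjusted p = 0.826) and DNApol-epsilon58 (-0.15, SE 0.21, adjusted p = 0.588) were not called. The depth covariate gave a lower call for DNApol-epsilon255 (-0.58, adjusted p = 0.00561). DNApol-alpha180, the catalytic subunit of polymerase alpha, was at 124 and 135 CPM against 161, 57.0 and 43.6 CPM (0.60, SE 0.56, adjusted p = 0.426), and was called higher without control 1 (1.42, adjusted p = 1.88e-05).

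Genomic position was examined because BEAF-32 is known to bind between divergently transcribed genes. In the annotation, 20 of the 32 genes (62.5%) have a protein-coding neighbour on the other strand whose 5′ end lies within 1000 bases upstream, against 42.6% of tested protein-coding genes. Mcm2 (3R, 8264970 to 8267924, plus strand) and RpA-70 (3R, 8262120 to 8264451, minus strand) are such a pair, 518 bases apart, and neither was called. Of 11 called genes with such a neighbour, the neighbour was lower in 3 cases, higher in 1, not called in 6 and not tested in 1. For the 9 uncalled genes with one, the neighbour was lower in 0 cases, higher in 2 and not called in 7. These counts are small and were not tested against the 18.7% lower and 22.7% higher of all tested genes. Mcm2 and RpA-70 enter the count of uncalled genes as each other's neighbour. Orc3 and its neighbour FLASH, a histone mRNA processing factor (-0.78, SE 0.22, adjusted p = 0.0365), both fell. Orc2 fell while its neighbour Kots rose (1.36, SE 0.28, adjusted p = 0.0141).

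Caf1-105 fell while CG11777, 75 bases away, was not called (0.69, SE 0.33, adjusted p = 0.138), and Mcm5 fell while Art1, 297 bases away, was not called (0.34, SE 0.17, adjusted p = 0.156). Of the 11 replication genes on 2R, the arm of BEAF-32, 8 fell, against 16.9% of all tested genes on that arm, and Fen1, PCNA and dpa were not called. On 2L 5 of 7 fell (20.2% of all tested genes there), and on 3R 3 of 6 (18.1%). On X 1 of 5 fell (20.9%), near the arm's own share, and on 3L 0 of 3 (18.3%), where Psf1 alone had an unadjusted p under 0.05 (0.0284) and was called by DESeq2 and limma-voom. Among the other replication genes on 3L, Cdc6, DNApol-delta, DNApol-alpha60, Pol31 and DNApol-alpha50 fell, Adk1 rose and the rest were not called. Orc1 and dpa lie near each other on 2R, starting at 7522437 and 7496702, with fold changes of -2.0 and 0.11.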

How the data were processed

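Per the labels' protocols, Trizol-extracted ovary RNA went into a directional library kit. The submitters' processing notes name FastQC 0.11.8, STAR 2.7.5b, Trim Galore 0.6.6, Salmon 1.2.1 and the dm6 build. Their order and settings, the annotation and the strand setting are not given in the sources used here. Per gene and library, the authors deposited unscaled estimated counts in 1 table of 5 libraries.

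These values were rounded to integers. After filterByExpr with the groups, libraries were scaled by TMM (factors 0.941 to 1.03), and the genes fitted with edgeR 4.0.16 (glmQLFit, robust, glmQLFTest; R 4.3.3) over 9241 genes, knockout minus control, with no covariate. Calls are at a Benjamini-Hochberg adjusted p under 0.05 over all 9241 genes. Standard errors are the fold change over the square root of F, and 95% intervals use the t quantile of the fitted degrees of freedom. CPM values use column totals, without TMM. The fits were checked on simulated counts with planted fold changes. These held neither the length-related shift of control 1 nor the fall of the eggshell genes.

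Of the 14094 gene identifiers, 14048 (99.7%) were in the Ensembl 115 annotation of BDGP6.54, which has dm6 coordinates, and 29 more matched by symbol, among them RPA2 and RPA3. Length is that of the longest annotated transcript. Alternatives were DESeq2 1.42.0, limma-voom (limma 3.58.1), other scalings, no filter, rRNA genes left out, a replicate block, a depth covariate, thinning and leaving out each library. Every member was named, together with the 8 called genes of smallest p and the 4 uncalled genes of highest CPM among the other replication genes. Caf1-55 and CG8142 were added with their values known. Members, lists and tests were chosen with earlier results of these data known.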

Additional observations from a re-analysis of the deposited data

How the results depend on the processing

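Across 15 alternatives the 17 called genes were negative in all, and 16 of the 17 lost calls, if any, without knockout 1 or knockout 2 only; Psf2 was the exception. Leaving out 1 library gave 3 to 24 replication genes lower, 5 to 31 other replication genes lower and 0 to 5 higher, and 878 to 6083 calls over all genes (403 to 2731 lower, 475 to 3352 higher). The calls that stayed without knockout 1 were Orc1, Orc3 and Orc6, and without knockout 2 these and Caf1-105. A lone knockout library is assumed there to vary like the controls. The replicate block leaves control 3 alone in its block, so the fold changes of that fit rest on the other libraries. In it 16 replication genes were lower. There 1 other replication gene (Adk1, with pic lost) was higher, as with library totals only, scaling over germline genes or no filter. Replicate numbers pair nothing in the labels. The correlation of deviations was 0.058 and 0.047 for same-numbered pairs. With 2 knockout libraries their deviations mirror each other, so these values are not independent and cannot decide on pairing. With the depth covariate, which compares the knockouts with control 1 alone, the replication gene RPA3 was called higher.

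Signs turned for small or control 1-dependent values, and the cause was not tested. Scaling over germline genes moved the median of all genes from 0.11 to -0.015, and gave -0.018 for Mcm6, -0.024 for dpa, -0.057 for PCNA, -0.092 for RfC4 and -0.018 for Dp. RPA3 was at 0.071 with limma-voom, 0.17 with the block and 0.78 with the depth covariate. This covariate gave 0.072 for Psf3, 0.25 for RPA2, 0.048 for Fen1, -0.82 for chif and -0.30 for DNApol-alpha180. RfC4 was at -0.0090 with no filter. Leaving out 1 library gave ranges across 0: -0.061 to 0.11 for RfC4, -0.0063 to 0.11 for PCNA, -0.021 to 0.13 for dpa, -0.63 to 0.016 for RPA3, -0.45 to 0.11 for Top2, -0.029 to 0.16 for Dp, -0.29 to 1.14 for chif and -0.32 to 0.23 for DNApol-epsilon255. Depth limits the lowest genes: 3 counts are 0.355 CPM in control 2.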
